A study of Mus musculus with 12 samples.

Results

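The 31 genes described here mark neutrophils, the most abundant phagocytes of the bloodstream, from their granule-making precursors in haematopoietic tissue to the mature cells that circulate. They were chosen by symbol, as a list of granule and maturation genes, and all 31 were found among the 46603 gene identifiers counted in each library. As background, a neutrophil makes its granules in sequence. Promyelocytes make primary (azurophil) granules with serine proteases and myeloperoxidase, myelocytes make secondary granules, and later cells make gelatinase granules and then receptors for chemokines, bacterial peptides and growth factors. In mice, precursors are found mainly in bone marrow and, to a lesser extent, in the spleen, while mature cells make up most neutrophils in blood. For description, the genes were sorted into 4 primary granule genes, 2 transcription factors of commitment, and 7 secondary granule and myelocyte genes. The rest were 4 gelatinase granule genes, 9 receptors and surface proteins of mature cells, and 5 cytosolic and lysosomal genes. This sorting is a choice, and the stage of single genes, such as Mmp8 and Retnlg, was not tested.

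RNA was sequenced from blood and spleen of C57/Bl6 mice, 8 months of age, either wild type (WT) or lacking nuclear myosin 1 (NM1 KO). NM1 is a nuclear form of the motor protein Myo1c, and the study's title concerns platelet activation and the immune response. Blood and spleen of each genotype gave 4 groups of 3 libraries. Blood was drawn from the submandibular vein into RNAzol, spleen RNA came from a small piece of the organ's tip, and 500 ng of total RNA entered each library. The labels do not state that the libraries came from separate mice, so p-values measure the spread between these libraries, which may be technical. In bulk samples like these, fewer cells of a type and less RNA per cell cannot be told apart. Myo1c, counted over all its forms, stood at 58.5 to 219 CPM (counts per M, 10 to the power of 6, counts) in WT and 128 to 199.6 CPM in KO libraries. A gene-level count cannot show the loss of 1 form, so it checks neither the knockout nor the genotype labels.

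Before the results, the libraries have to be divided. Globin genes took 48.9% to 56.1% of counts in 6 libraries, called globin-rich (over 25%), and 0.846% to 5.90% in the other 6, called globin-poor. CPM here leaves globin out of the total, which was 4.09 to 5.83 M in the globin-rich and 21.8 to 27.4 M in the globin-poor libraries. A gene with 0 counts may hold up to 3, which is 0.515 to 0.733 CPM and 0.109 to 0.138 CPM for the respective kinds, for counting error only. The split crosses the tissue labels. Blood WT 01, KO 02 and KO 03 were globin-rich, but so were spleen WT 02, WT 04 and KO 03, while blood WT 03, WT 04 and KO 04 were globin-poor like spleen WT 01, KO 01 and KO 04. Vcam1, an adhesion gene of red pulp macrophages in the spleen, stood at 0 to 1.72 CPM in the globin-rich libraries and at 197 to 411 CPM in the globin-poor ones. Thus 6 libraries, 3 of each label, go against their tissue label in both measures, and most levels below are given by library kind. Some ranges cover all libraries, and means with SD for WT or KO blood or spleen pool both kinds. In the text, values of the globin-rich WT libraries come in the order blood 01, spleen 02, spleen 04, those of globin-rich KO in the order blood 02, blood 03, spleen 03, those of globin-poor WT in the order blood 03, blood 04, spleen 01, and those of globin-poor KO in the order blood 04, spleen 01, spleen 04.

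Primary granule genes were scarce in every globin-rich library and clearly present in every globin-poor one. Elane, which encodes neutrophil elastase (chromosome 10, 79886247 to 79888215, plus strand, GRCm38), had 1.89, 2.39 and 0.977 CPM in globin-rich WT and 2.50, 0.188 and 0.731 CPM in globin-rich KO libraries. The globin-poor libraries held 34.1, 14.7 and 7.37 CPM (WT) and 16.1, 15.2 and 18.0 CPM (KO). The library kinds did not overlap, and the medians differed 10.9-fold. Mpo, myeloperoxidase (chromosome 11, 87793581 to 87804413, plus strand), had 2.92, 3.05 and 2.44 CPM in globin-rich WT and 1.25, 0.188 and 0 CPM in globin-rich KO libraries, against 45.6, 25.7 and 10.9 CPM and 20.8, 28.6 and 34.1 CPM in the globin-poor ones. Its 0 counts in spleen KO 03 allow up to 0.548 CPM. Prtn3, proteinase 3, ranged from 0.733 to 1.89 CPM when globin-rich and from 4.65 to 36.0 CPM when globin-poor. Ctsg, cathepsin G, had no counts in 4 of the 6 globin-rich libraries and 0.961 to 6.89 CPM in the globin-poor ones. All 4 genes were highest in blood WT 03, a library labelled blood, and lowest among globin-poor libraries in spleen WT 01.

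The 4 primary granule genes varied together. Over the 12 libraries their 6 pairwise correlations of log2(CPM + 1) had a median r of 0.96, which is a description, since the points share the globin split and the difference in depth. Prtn3 and Elane are neighbours on chromosome 10, 3.07 kb apart on the same strand. Part of Prtn3 overlaps the oppositely oriented gene Plppr3, so with the strand setting of the counting unknown its counts are less certain. The 250 bases before a RefSeq start site of each gene are shown because these genes varied together. They are from RefSeq on GRCm38.p6, read 5′ to 3′ on the strand of the gene, with matches to a PU.1 motif (GAGGAAGT) and a MYB motif (CAACTG) on either strand in capitals. PU.1 and MYB are transcription factors of early myeloid cells.
Elane, chr10:79886062-79886311, plus strand: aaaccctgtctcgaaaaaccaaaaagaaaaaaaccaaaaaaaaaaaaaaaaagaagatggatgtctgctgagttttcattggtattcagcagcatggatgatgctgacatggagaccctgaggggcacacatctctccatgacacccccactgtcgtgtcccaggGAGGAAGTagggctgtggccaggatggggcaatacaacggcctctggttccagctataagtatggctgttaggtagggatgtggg
Prtn3, chr10:79879417-79879666, plus strand: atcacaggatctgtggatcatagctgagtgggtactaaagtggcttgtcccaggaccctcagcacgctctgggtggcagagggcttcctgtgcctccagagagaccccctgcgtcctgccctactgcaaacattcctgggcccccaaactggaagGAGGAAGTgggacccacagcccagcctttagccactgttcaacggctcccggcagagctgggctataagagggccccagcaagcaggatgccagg
Mpo, chr11:87793534-87793783, plus strand: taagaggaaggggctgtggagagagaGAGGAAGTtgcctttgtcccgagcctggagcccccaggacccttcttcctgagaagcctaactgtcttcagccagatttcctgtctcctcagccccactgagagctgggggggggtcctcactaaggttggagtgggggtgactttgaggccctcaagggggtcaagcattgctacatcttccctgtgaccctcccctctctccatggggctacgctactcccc
Ctsg, chr14:56102575-56102824, minus strand: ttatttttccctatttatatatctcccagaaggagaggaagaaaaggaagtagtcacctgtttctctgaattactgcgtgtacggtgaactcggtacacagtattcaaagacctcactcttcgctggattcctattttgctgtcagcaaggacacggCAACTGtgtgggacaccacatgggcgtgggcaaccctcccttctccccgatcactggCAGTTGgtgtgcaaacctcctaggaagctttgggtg
Elane, Prtn3 and Mpo each hold the PU.1 motif, 85, 95 and 224 bases before the RefSeq start. Ctsg holds the MYB motif at 93 and 36 bases before its RefSeq start. Gene positions in the text come from GENCODE, whose bounds differ from some RefSeq starts. The window of Prtn3 lies wholly inside its GENCODE bounds, and those of Elane and Mpo lie partly inside. Among 32851 RefSeq promoters of 300 bases, which add 50 bases after the start, 3.20% hold this PU.1 motif and 13.7% this MYB motif. Promoters were found for 29 of the 31 genes, with 31 promoters in all because Ly6g and Gfi1 have extra ones. Of these genes, 6 hold the PU.1 motif (Elane, Mpo, Prtn3, S100a8, Mmp8 and Ly6g) and 3 the MYB motif (Ctsg, Fcnb and Ly6g). Counted by promoter, 7 of 31 hold the PU.1 motif and 4 of 31 the MYB motif. A match describes the letters and is no evidence of binding.

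The commitment factors were low in all libraries. Gfi1, a repressor needed for neutrophil precursors but also active in lymphocytes and stem cells, stood at 0.653 to 3.09 CPM when globin-rich and 6.98 to 16.2 CPM when globin-poor, with no overlap and its highest value in spleen WT 01. Cebpe, the factor that drives secondary granule genes, ranged from 0.894 to 4.39 CPM and from 1.80 to 3.31 CPM, and overlapped.

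Secondary granule genes fell into 2 patterns. Ngp, Camp and Ltf followed the primary granule genes. Ngp, neutrophilic granule protein (chromosome 9, 110419747 to 110423012, plus strand), had 0.515, 6.31 and 7.09 CPM in globin-rich WT and 1.61, 0.939 and 8.41 CPM in globin-rich KO libraries. It reached 151, 88.5 and 31.9 CPM in globin-poor WT, and 72.1, 95.0 and 116 CPM in globin-poor KO libraries, 23.2-fold more by medians. Within the globin-rich kind it was lowest in the 3 libraries labelled blood and highest in the 3 labelled spleen. The share of all genes that separate in this way was not computed, and the lowest Ngp value rests on 3 counts. Camp, the antimicrobial peptide cathelicidin, ranged from 0 to 1.96 CPM when globin-rich and from 13.5 to 72.8 CPM when globin-poor, and its 0 counts in blood KO 03 allow up to 0.564 CPM. Ltf, the iron-binding lactoferrin, ranged from 0.376 to 5.22 CPM and from 17.1 to 111 CPM. These 3 genes lie on chromosome 9, Camp 570.1 kb from Ngp and Ngp 596 kb from Ltf, and their upstream bases are shown in the same way, with matches to the C/EBP motif TTGCNNAA in capitals. C/EBP factors switch on secondary granule genes.
Ngp, chr9:110419558-110419807, plus strand: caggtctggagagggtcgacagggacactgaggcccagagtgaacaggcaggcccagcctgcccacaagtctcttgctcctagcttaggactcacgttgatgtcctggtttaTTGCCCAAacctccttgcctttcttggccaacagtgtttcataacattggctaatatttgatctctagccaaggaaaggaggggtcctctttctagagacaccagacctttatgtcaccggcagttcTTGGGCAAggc
Camp, chr9:109849457-109849706, minus strand: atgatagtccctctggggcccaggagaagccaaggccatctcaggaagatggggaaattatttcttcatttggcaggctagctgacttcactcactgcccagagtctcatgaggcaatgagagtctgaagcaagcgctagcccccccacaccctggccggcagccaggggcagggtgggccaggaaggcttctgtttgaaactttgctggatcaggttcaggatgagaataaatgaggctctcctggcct
Ltf, chr9:111019042-111019291, plus strand: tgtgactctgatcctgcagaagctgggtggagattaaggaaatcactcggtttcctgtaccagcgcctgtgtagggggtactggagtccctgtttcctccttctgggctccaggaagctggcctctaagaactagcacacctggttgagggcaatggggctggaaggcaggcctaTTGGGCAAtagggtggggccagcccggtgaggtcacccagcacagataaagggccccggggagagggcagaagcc
Ngp holds this motif at 138 and 11 bases before the RefSeq start and Ltf at 75, while these letters are not in the window of Camp. The windows of all 3 genes lie partly inside their GENCODE bounds, and the nearer Ngp match lies inside them. In all 10 of the 29 genes hold this C/EBP motif (Ngp, Ltf, Lcn2, S100a9, Mmp8, Retnlg, Fcnb, Ly6g, Anxa1 and Gfi1). Counted by promoter, 10 of their 31 promoters hold it, against 10.8% of all promoters.

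The other secondary granule and myelocyte genes overlapped between the library kinds. Lcn2, lipocalin 2, which withholds iron from bacteria, had 35.3, 18.5 and 9.53 CPM in globin-rich WT and 12.7, 12.8 and 91.6 CPM in globin-rich KO libraries. It had 66.8, 30.9 and 20.5 CPM in globin-poor WT, and 28.3, 31.7 and 52.8 CPM in globin-poor KO libraries, so its highest value lay in spleen KO 03 and its next highest in blood WT 03. Chil3, the chitinase-like protein Ym1, also made by macrophages, had 97.1, 64.6 and 71.8 CPM and 32.2, 39.6 and 364 CPM in globin-rich WT and KO libraries. It had 35.2, 30.6 and 11.1 CPM and 15.0, 31.3 and 51.2 CPM in globin-poor ones. Its reads may be shared with the close paralog Chil4. Fcnb, ficolin B of immature myeloid cells, stayed at or below 4.18 CPM everywhere, and the surface protein Cd177 ranged from 8.54 to 51.9 CPM.

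Of the gelatinase granule genes only Mmp9 separated the library kinds, and it was higher in the globin-rich libraries. Mmp9, gelatinase B (chromosome 2, 164940780 to 164955850, plus strand), had 192, 112 and 103 CPM in globin-rich WT and 191, 107 and 408 CPM in globin-rich KO libraries. It had 22.8, 29.9 and 58.1 CPM in globin-poor WT, and 23.6, 25.9 and 33.4 CPM in globin-poor KO libraries, a 5.44-fold difference of medians with no overlap. The collagenase Mmp8 ranged from 11.1 to 74.6 CPM and from 5.95 to 14.6 CPM, and the membrane-anchored protease Mmp25 from 1.69 to 8.96 CPM and from 0.132 to 2.02 CPM. Retnlg, a resistin-like secreted protein, ranged from 39.3 to 329 CPM and from 27.97 to 97.0 CPM. These last 3 overlapped between kinds, and all 4 were highest in spleen KO 03.

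Of the 9 receptors and surface proteins of mature cells, 4 (Csf3r, Cxcr2, Itgam and Clec4d) were higher in every globin-rich than in any globin-poor library. Csf3r, the receptor for granulocyte colony-stimulating factor (chromosome 4, 126024550 to 126044440, plus strand), had 450.0, 248 and 255 CPM in globin-rich WT and 228, 313 and 1069 CPM in globin-rich KO libraries. It had 35.0, 66.0 and 55.5 CPM in globin-poor WT, and 26.8, 50.9 and 76.7 CPM in globin-poor KO libraries. The kinds did not overlap, with a 5.34-fold difference of medians. Cxcr2, the chemokine receptor that draws neutrophils out of the marrow and into tissue, had 111, 54.8 and 53.0 CPM and 55.1, 60.5 and 265 CPM in globin-rich WT and KO libraries. It had 13.3, 25.3 and 27.5 CPM and 10.9, 18.9 and 30.2 CPM in globin-poor ones. Itgam, the integrin chain CD11b, ranged from 75.7 to 216 CPM and from 15.2 to 33.9 CPM, and the lectin receptor Clec4d from 17.9 to 93.8 CPM and from 6.17 to 15.2 CPM, again with no overlap.

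The other 5 surface genes overlapped between kinds, and Il1r2 and Ly6g had lower medians in globin-rich libraries, at 0.436 and 0.478 of the globin-poor ones. The formyl peptide receptors Fpr1 and Fpr2, neighbours 3.88 kb apart on chromosome 17, ranged from 2.55 to 18.6 CPM and from 1.88 to 31.8 CPM over all libraries, and reads may be shared within their family. Trem1, an activating receptor, ranged from 2.64 to 30.9 CPM. Il1r2, the decoy receptor for interleukin 1, ranged from 0.977 to 19.2 CPM. Ly6g, the surface marker used to sort mouse neutrophils, was low throughout, from 0 to 11.5 CPM, and belongs to a family of similar genes. All 9 mature-cell genes were highest in spleen KO 03. Monocytes also express Itgam, Clec4d, Csf3r, Lyz2, Anxa1 and Chil3, and their own markers Ccr2 and F13a1 also moved with library kind, at 50.1 to 132 and 110 to 301 CPM in globin-rich against 8.50 to 21.4 and 4.36 to 19.8 CPM in globin-poor libraries. The 10 monocyte and macrophage markers together summed to 569 to 1144 CPM and 456 to 898 CPM, overlapping, with none at 0 in all libraries of a kind. Their part in the result was not tested.

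The cytosolic and lysosomal genes took most of the list's summed CPM in every library. S100a8 and S100a9, the calcium-binding pair that forms calprotectin, lie 22.6 kb apart on chromosome 3. S100a8 had 309, 179 and 154 CPM in globin-rich WT and 149, 146 and 1076 CPM in globin-rich KO libraries, against 142, 119.6 and 92.9 CPM and 85.0, 120.1 and 151 CPM in globin-poor ones. S100a9 followed, from 207 to 1791 CPM when globin-rich and from 182 to 349.6 CPM when globin-poor. Per kilobase of exon, S100a8 stood at 0.438 to 0.542 of S100a9 in globin-rich and 0.266 to 0.408 in globin-poor libraries. Lyz2, lysozyme, shared with macrophages, ranged from 598 to 2295 CPM, and Anxa1, annexin A1, from 25.2 to 187 CPM. Padi4, the deiminase used in neutrophil extracellular traps, was the only 1 of these 5 whose kinds did not overlap, at 15.0 to 62.9 CPM when globin-rich and 4.40 to 12.1 CPM when globin-poor.

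**Figure D1:**
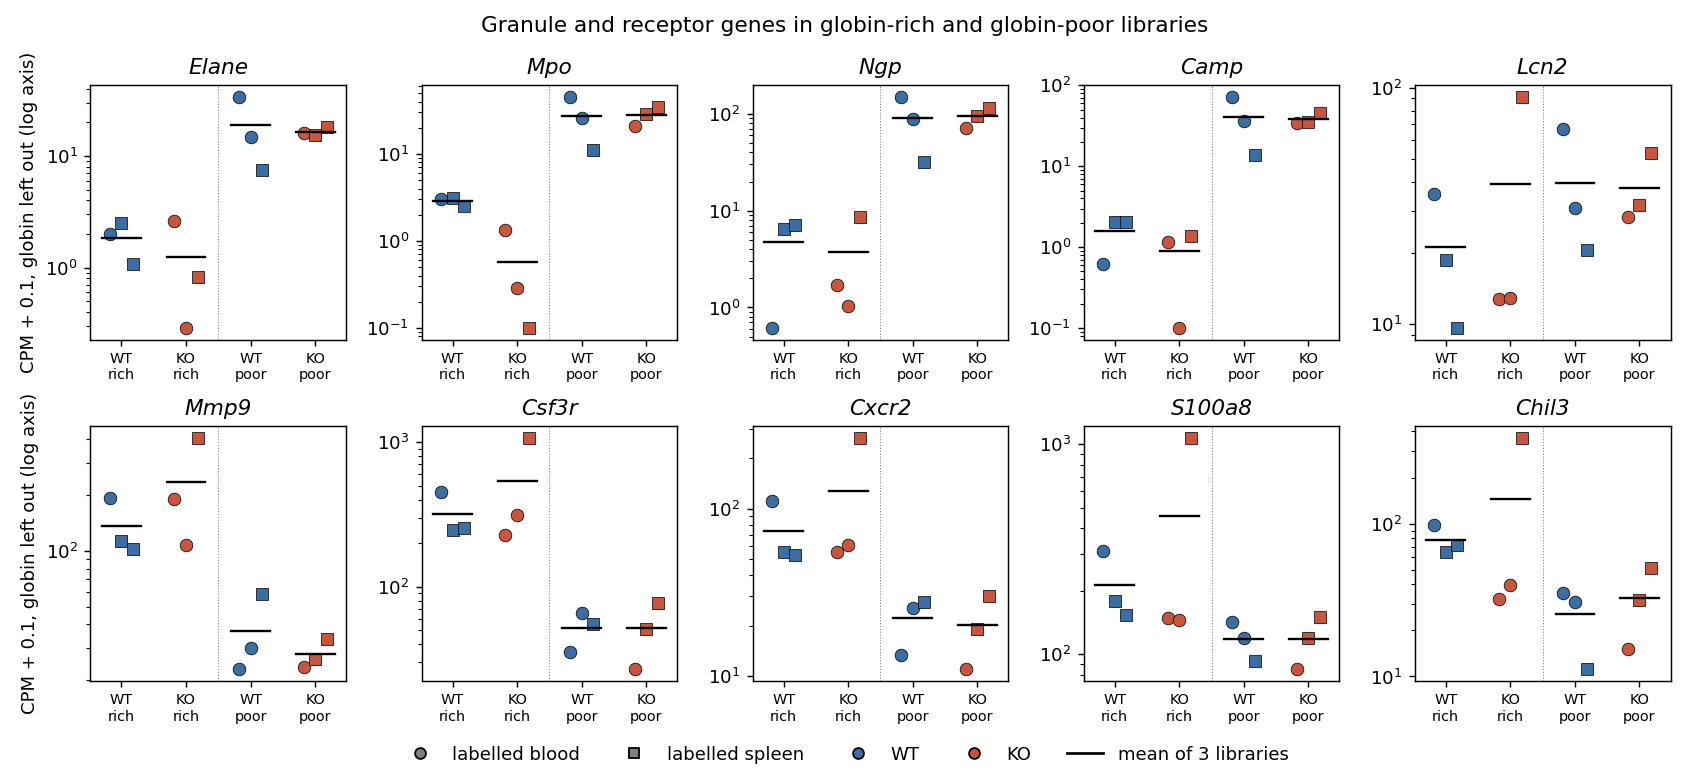
CPM with globin left out, plus 0.1, on a log axis, for 10 genes in globin-rich and globin-poor libraries of each genotype. Points are single libraries (circles labelled blood, squares labelled spleen; blue WT, red KO) and lines are means of 3 libraries. Elane, Mpo, Ngp and Camp lie higher in every globin-poor library, Mmp9, Csf3r and Cxcr2 in every globin-rich one, and Lcn2, S100a8 and Chil3 overlap, with spleen KO 03 far above the other globin-rich libraries.

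Counted over the list, 8 of 31 genes were higher in every globin-poor than in any globin-rich library (Elane, Mpo, Prtn3, Ctsg, Gfi1, Ngp, Camp and Ltf), and 6 were higher in every globin-rich one (Mmp9, Csf3r, Cxcr2, Itgam, Clec4d and Padi4). The other 17 overlapped. Among the 14538 genes averaging 1 CPM or more, 49.8% were higher in every globin-poor library and 3.49% in every globin-rich one. The share of the list higher in globin-poor libraries is therefore below the background, and the share higher in globin-rich ones above it. The division by granule stage, 4 of 4 primary granule genes against 0 of 9 mature-cell genes, is what sets its members apart from each other. The kinds were defined from the counts, so these counts are a description with no test. Markers of dividing and immature cells moved the same way as the primary granule genes. The 5 cell cycle genes, among them Mki67 and Top2a, summed to 50.1 to 166 CPM when globin-rich and 352 to 2947 CPM when globin-poor, and spleen WT 01 was the lowest globin-poor library for these as for the primary granule genes. Kit, the stem cell factor receptor, stood at 0.376 to 4.98 CPM and 36.1 to 40.5 CPM, whereas the 5 stem and progenitor markers together overlapped, at 49.6 to 157 CPM and 125 to 158 CPM. Their part in the result was not tested.

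**Figure D2:**
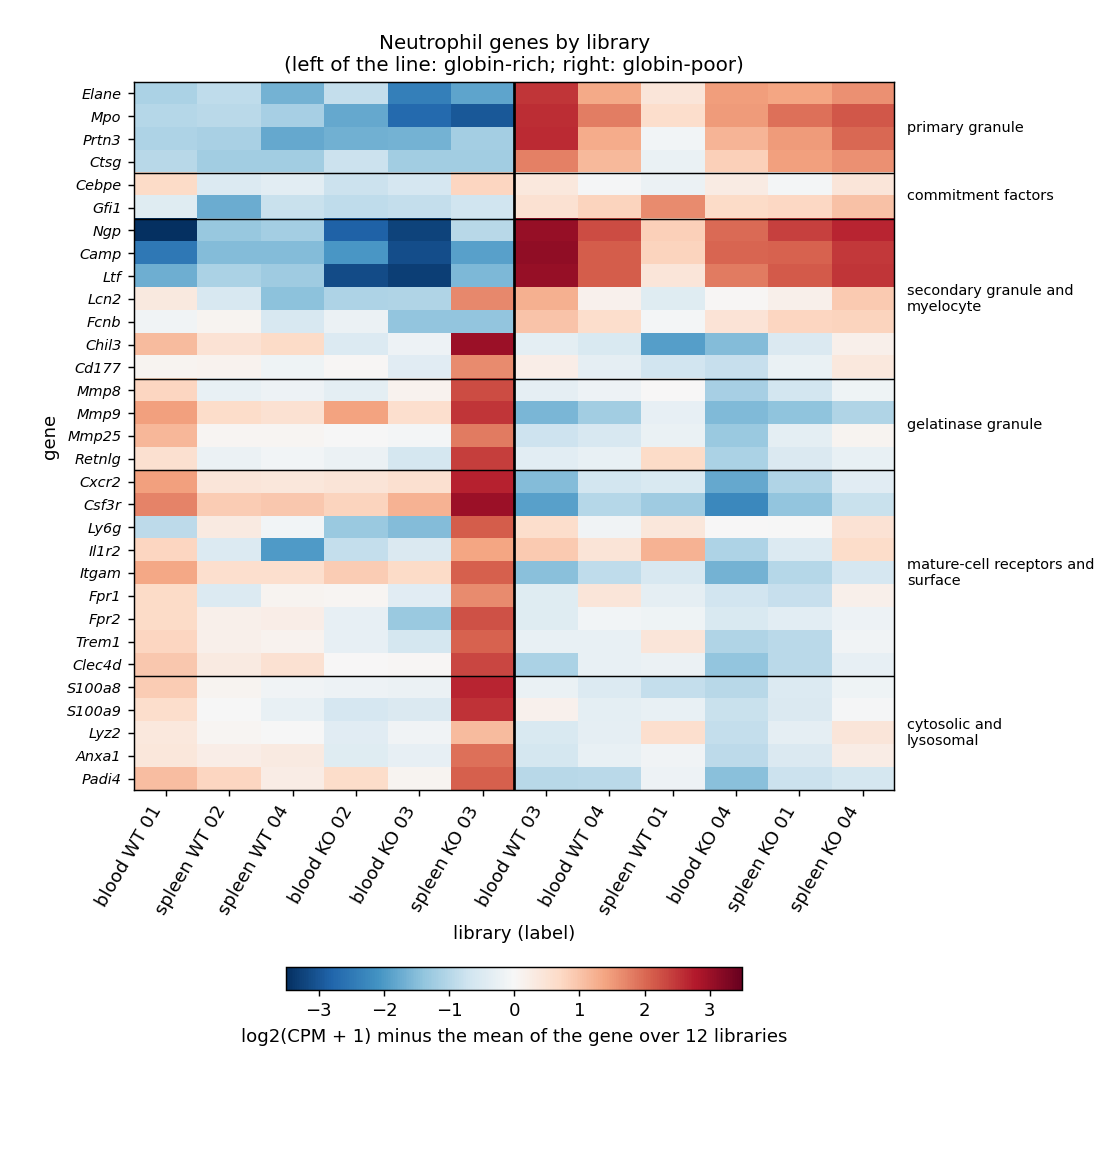
Each cell is log2(CPM + 1) of 1 gene in 1 library minus that gene's mean over 12 libraries, with globin-rich libraries left of the line and rows grouped by stage. Primary granule genes with Ngp, Camp and Ltf are above their means in nearly every globin-poor library, and 22 of the 31 genes are highest in spleen KO 03.

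To place each library on the maturation sequence, the deviations shown in the heat map were averaged within a stage. In 5 of the 6 globin-poor libraries the primary granule genes had the highest average of the 6 stages, from 1.24 in blood KO 04 to 2.37 in blood WT 03, and the gelatinase or mature-cell genes the lowest. Relative to the other libraries, these 5 lay toward the precursor end. The averages rank libraries against each other and do not show which stage is most abundant within a library. Spleen WT 01 stood between the ends, with 0.18 for primary granule and -0.11 for mature-cell genes. In globin-rich libraries the primary granule averages were -1.99 to -1.04, and the highest stage was gelatinase granule, mature-cell or cytosolic. Their mature-cell averages ran from -0.20 in blood KO 03 to 2.17 in spleen KO 03 and overlapped those of the globin-poor libraries, -1.16 to -0.11. The primary granule minus the mature-cell average was -1.86, -1.26 and -1.55 in globin-rich WT, -1.21, -1.79 and -3.97 in globin-rich KO, 2.99, 1.66 and 0.29 in globin-poor WT, and 2.40, 2.34 and 1.97 in globin-poor KO libraries. The kinds did not overlap, and the gap between the lowest globin-poor and the highest globin-rich value was 1.497. WT and KO libraries overlapped within each kind. Over the 12 libraries, primary granule and mature-cell genes had a median r of -0.50 across 36 pairs, a description that rests on the same split.

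**Figure D3:**
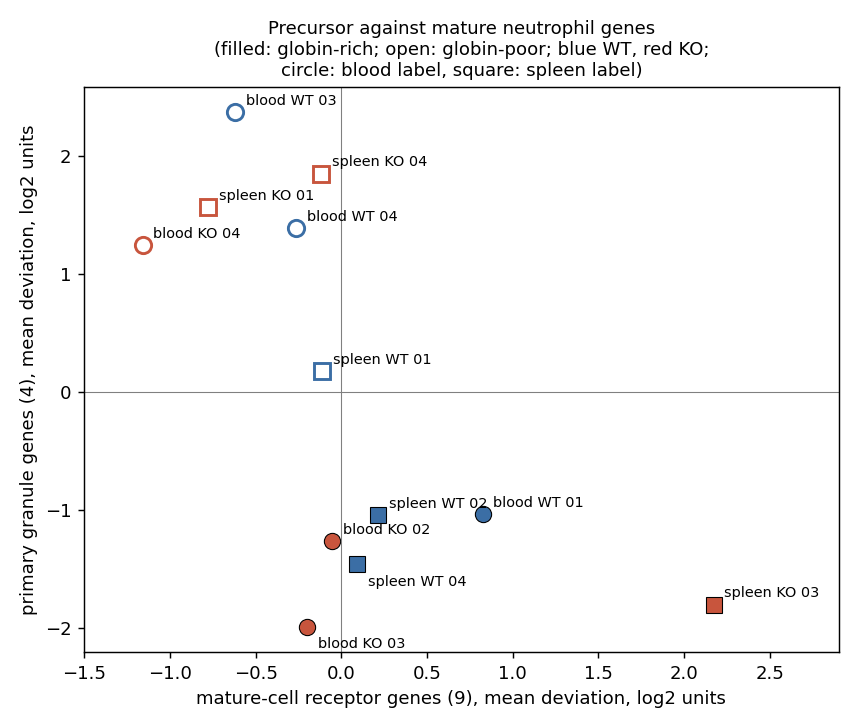
Average deviation (log2 units) of the 9 mature-cell genes on the x axis and of the 4 primary granule genes on the y axis, 1 point per library, filled for globin-rich and open for globin-poor, blue for WT and red for KO, circles for the blood and squares for the spleen label. Open points lie above 0 and filled points below 0 on the y axis under both tissue labels, and spleen KO 03 lies farthest to the right, at 2.17.

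Ratios within a library do not depend on its total, and they restate the order for a few pairs chosen from the list. Per kilobase, Mpo stood at 0 to 0.0130 of Csf3r in globin-rich and at 0.207 to 1.37 in globin-poor libraries. Elane stood at 0.00853 to 0.141 and 0.830 to 7.93 of Cxcr2, and Ngp at 0.00777 to 0.200 and 1.59 to 19.1 of Mmp9. Even within secondary granules, Ltf stood at 0.0224 to 0.370 of Lcn2 in globin-rich and at 0.633 to 1.42 in globin-poor libraries. Camp stood at 0.590 to 0.778 of Ngp in globin-poor libraries and at 0 to 1.61 in globin-rich ones, where both had few counts. The ratios of Mpo to Csf3r, Elane to Cxcr2 and Ngp to Mmp9 did not overlap between library kinds, under either tissue label. This follows from the levels above, where each of these genes already separated the kinds, so it adds no support. Ratios to late genes that overlapped, such as Il1r2 and Ly6g, are not given.

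One library stood apart. Spleen KO 03 had the highest value of all 12 libraries for 22 of the 31 genes, against 4.84% of the 14538 expressed genes. Its 31 genes summed to 8518 CPM, against 1980 to 3510 CPM for the other globin-rich and 1297 to 2695 CPM for the globin-poor libraries. It was the highest library for 18 of the 18 gelatinase, mature-cell and cytosolic genes, for 3 of the 7 secondary granule and myelocyte genes (Lcn2, Chil3 and Cd177), for Cebpe and for 0 of the 4 primary granule genes. S100a9 was 3.76-fold and S100a8 3.48-fold above the next globin-rich library, Retnlg 3.66-fold, Chil3 3.75-fold and Csf3r 2.38-fold. By contrast Mpo, Ctsg and Fcnb had 0 counts there, and Elane stood at 0.731 CPM. The monocyte sum was also highest in this library (1144 CPM), by a smaller margin over blood WT 01 (962 CPM). Spleen KO 03 and blood KO 03 also had the fewest detected genes, 16583 and 15733, against 21986 to 26655 in the other 10 libraries, and the part of this in the results was not tested. The genotype and label medians below are also given without spleen KO 03.

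The tissue label was then compared with library kind and genotype held constant, to see what the label carries beyond globin. edgeR's quasi-likelihood test with Benjamini-Hochberg adjustment over all genes called 5 of 16858 genes (0.0297%) at an adjusted p under 0.05 and none of the 31. The members' median log2 fold change, spleen over blood label, was 0.50, with 25 above and 6 below 0, beside 0.01 over all genes tested. Without spleen KO 03 it was 0.18, with 23 above and 8 below 0. Lyz2 stood at 0.65 ± 0.22 (SE; adjusted p = 0.308), Padi4 at 0.65 ± 0.23 (adjusted p = 0.333) and Anxa1 at 0.77 ± 0.27 (adjusted p = 0.340). DESeq2 called 405 genes and Lyz2 among them (adjusted p = 0.0192), and limma-voom 649 genes with none of the 31.

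The label was also compared within the 6 libraries whose globin share matches it (blood globin-rich, spleen globin-poor) and within the 6 whose share does not, the second set chosen after seeing the data. Each set compares 1 library kind with the other under exchanged labels, so opposite signs follow largely from the choice of libraries. Label and kind cannot be told apart within a set, so the values do not test tissue. Where they match, edgeR's quasi-likelihood test called 6606 of 16996 genes (38.9%), and 23 of the 31. Of these, 8 were higher under the spleen label, namely Camp, Ctsg, Elane, Gfi1, Ltf, Mpo, Ngp and Prtn3, and 15 were lower. Ngp stood at 5.24 ± 0.27 (log2 fold change ± SE), Mpo at 2.99 ± 0.70, Csf3r at -3.46 ± 0.29 and Cxcr2 at -2.55 ± 0.24. Where they do not match, 6281 of 15990 genes (39.3%) and 26 of the 31 were called, 19 higher and 7 lower under the spleen label, with Ngp at -2.63 ± 0.29 and Csf3r at 4.48 ± 0.48. Of the 31 genes, 22 were called in both sets, and Cebpe, Fcnb, Il1r2 and Lcn2 in neither. Ly6g, low in all libraries, was the exception in sign and stood higher under the spleen label in both sets. Its log2 fold change was 2.57 ± 0.95 where they match (edgeR adjusted p = 0.0553) and 1.94 ± 0.68 where they do not (edgeR adjusted p = 0.0385).

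**Figure D4:**
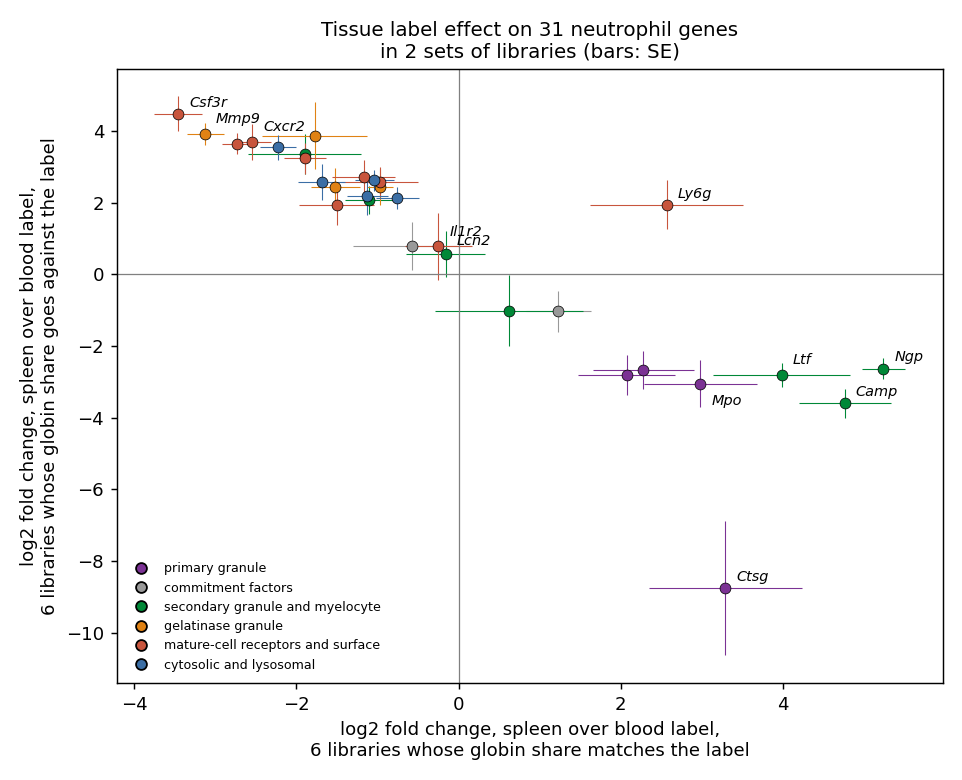
Log2 fold change of the spleen over the blood label for 31 genes, in the 6 libraries whose globin share matches the label (x axis) and the 6 whose share goes against it (y axis), with bars of 1 SE and colours by stage. Most points lie in the upper left or lower right quadrant, as with Csf3r and Ngp. Ctsg had 0 counts in all 3 globin-rich libraries labelled spleen, so its position on the y axis has no fixed size.

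Genotype was compared in blood with library kind held constant. In this fit all 31 genes had log2 fold changes below 0, with a median of -0.69 beside 0.00 over all genes, but no gene passed. Without the kind term 8 stood above and 23 below 0, limma-voom put 1 above 0, and the plain means of Mmp9 (107 against 81.5 CPM), Csf3r (189 against 184 CPM) and Itgam (63.3 against 57.9 CPM) were higher in KO than in WT blood. edgeR's quasi-likelihood test called 0 of 16505 genes (0%) and 0 of 31, while 340 genes and 13 of the 31 had an unadjusted p under 0.05. DESeq2 also called 0 and limma-voom 0. The genes with the smallest p were Chil3, Il1r2 and Retnlg. Chil3 had a mean of 54.3 ± 37.1 CPM in WT blood and of 28.9 ± 12.6 CPM in KO blood (SD, n = 3), with a log2 fold change of -1.10 ± 0.23 (edgeR adjusted p = 1.00). Il1r2 averaged 11.8 ± 1.98 and 3.53 ± 0.918 CPM, at -1.71 ± 0.43, and Retnlg stood at -0.72 ± 0.19, with the same adjusted p. For Il1r2 the libraries of the genotypes did not overlap: 12.2 CPM in WT against 3.40 and 4.51 CPM in KO when globin-rich, and 13.6 and 9.72 against 2.69 CPM when globin-poor. S100a9, Lcn2 and Trem1 were likewise lower in every KO than in any WT blood library, so 4 of 31 genes did not overlap, against 3.37% of expressed genes. Primary granule genes stood at -0.99 ± 0.41 (Mpo) to -0.47 ± 0.52 (Elane). WT blood held 1 globin-rich library and KO blood 2. With the replicate number as a block in place of library kind, the median was -0.01.

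In spleen the genes leaned the other way. Of the 31, 27 stood higher and 4 lower in KO, with a median log2 fold change of 0.70 beside -0.02 over all genes. edgeR's quasi-likelihood test called 0 of 16560 genes (0%) and 0 of 31, with 501 genes and 6 of the 31 at an unadjusted p under 0.05. DESeq2 called 3 genes, 1 of them Chil3, and limma-voom 0. Chil3 had 64.6 and 71.8 CPM in WT against 364 CPM in KO when globin-rich, and 11.1 CPM in WT against 31.3 and 51.2 CPM in KO when globin-poor. It was higher in KO within each kind, with a log2 fold change of 1.83 ± 0.24 (edgeR adjusted p = 0.202; DESeq2 1.82 ± 0.25, adjusted p = 6.38e-09). Lcn2 had a mean of 16.2 ± 5.85 CPM in WT spleen and of 58.7 ± 30.4 CPM in KO spleen (SD, n = 3), at 1.52 ± 0.34, and S100a8 averaged 142 ± 44.3 and 449 ± 543 CPM, at 1.29 ± 0.32 (both adjusted p = 0.996). Lcn2 and Cebpe were higher in every KO than in any WT spleen library, 2 of 31 genes against 1.3% of expressed genes. The primary granule genes ranged from -0.23 ± 1.27 for Mpo to 2.56 ± 1.17 for Ctsg, which had 0 counts in spleen WT 02, WT 04 and KO 03.

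The spleen difference changed most with 2 libraries. Without KO 03 the median was 0.14, with 18 genes above and 13 below 0. Without WT 01, which sets KO 03 alone against WT 02 and WT 04 in the globin-rich kind and leaves no globin-poor WT library, edgeR called 597 genes, 11 of the 31 among them, and the median was 1.25. Chil3 (1.74 ± 0.28, adjusted p = 0.0142), Lcn2 (2.01 ± 0.40, adjusted p = 0.0268) and S100a8 (2.01 ± 0.27, adjusted p = 0.00749) were then called. With the replicate number as a block in place of library kind the median was -0.57.

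Whether the KO effect differed between the labels was tested as an interaction in all 12 libraries, again with library kind as a term. The KO effect stood higher in spleen than in blood for 30 of 31 genes, with a median difference of 1.45 on the log2 scale beside 0.04 over all genes. edgeR's quasi-likelihood test called 0 of 18118 genes (0%) and 0 of 31, with 252 genes and 17 of the 31 at an unadjusted p under 0.05. DESeq2 called 4 genes and limma-voom 0, none of them among the 31. Chil3 differed by 3.03 ± 0.67, Lcn2 by 2.70 ± 0.73 and S100a8 by 2.24 ± 0.58 (adjusted p = 1 for each). Gfi1 stood at -0.28 ± 0.68 as the only member below 0, and none was below 0 when libraries were scaled by size alone, which put the median of all genes at 0.38. Without spleen KO 03 the median was 0.82, with 27 above and 4 below 0.

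Within a library kind, genotype could be compared 3 against 3 across tissue labels. In globin-rich libraries 25 of the 31 genes passed the filter on low counts, 19 above and 6 below 0, with a median of 0.25, and edgeR called 0 of 11728 genes (0%), while 799 had an unadjusted p under 0.05. DESeq2 called 31 genes and limma-voom 0, none of them among the 31, and limma-voom put 12 of the 25 above and 13 below 0. Mpo had a mean of 2.80 ± 0.317 CPM in WT and of 0.480 ± 0.675 CPM in KO (SD, n = 3), at -2.85 ± 1.10, and Ltf stood at -2.03 ± 0.85 (both adjusted p = 0.719). Mpo was lower in every globin-rich KO than in any globin-rich WT library, 1 of 31 genes against 4.73% of expressed genes, at counts near the limit of detection. Without blood KO 02, edgeR called 483 genes, and Mpo among them at -4.83 ± 1.21 (adjusted p = 0.0479). Mmp9 stood at 0.43 ± 0.36 (adjusted p = 0.751). Without spleen KO 03 all 25 genes stood below 0, with a median of -0.73, and Mmp9 stood at -0.09.

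In globin-poor libraries, where primary and secondary granule genes were well measured, 26 of 31 genes stood below and 5 above 0, with a median of -0.17. edgeR called 0 of 16422 genes (0%), while 138 had an unadjusted p under 0.05, DESeq2 called 5, none of them among the 31, and limma-voom 0. Elane had a mean of 18.7 ± 13.8 CPM in WT and of 16.4 ± 1.42 CPM in KO, Mpo 27.4 ± 17.4 and 27.8 ± 6.68 CPM, and Ngp 90.4 ± 59.5 and 94.2 ± 21.7 CPM (SD, n = 3). These differences are far smaller than the spread between WT libraries. The smallest p belonged to Il1r2 at -1.21 ± 0.45, Retnlg at -0.69 ± 0.26 and Trem1 at -0.81 ± 0.35 (adjusted p = 1.00 for each). No member's libraries separated by genotype (0 of 31), against 2.12% of expressed genes with KO higher and 0.908% with KO lower. At such shares a count of 0 sets the list apart in no way.

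**Figure D5:**
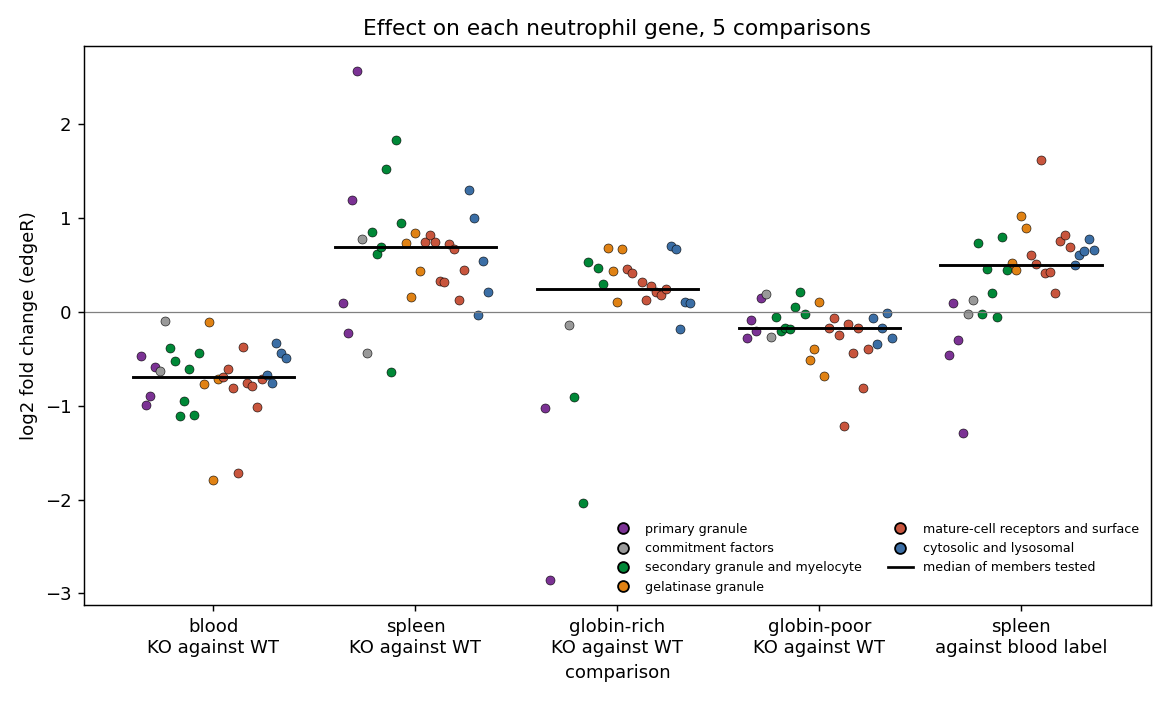
Log2 fold change of each gene tested in 5 comparisons, coloured by stage, with the median of the genes tested as a line. Genes lie below 0 in blood with library kind held constant (median -0.69) and mostly above 0 in spleen (median 0.70), while within the library kinds the medians are 0.25 and -0.17; in none of the 5 was a member called.

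A further 55 neutrophil genes that are not on the list, among them components of the oxidase, stefins and signalling receptors, are given beside them, with 0 called in each genotype comparison. In blood 42 of the 50 tested stood below 0 (median -0.28), but 25 of 50 without the kind term (median 0.00822). In spleen 43 of 52 stood above 0 (median 0.27), but 15 of 52 without spleen KO 03 (median -0.22). The interaction was above 0 for 48 of 52 (median 0.71), and for 31 of 51 without spleen KO 03 (median 0.12). In blood the smallest p belonged to Hdc, which makes histamine, at -1.44 ± 0.29, and the metalloprotease gene Adam8 at -0.81 ± 0.24 (edgeR adjusted p = 1.00). In spleen it belonged to the stefin Stfa2l1 at 1.33 ± 0.34 and to Wfdc21 at 1.82 ± 0.49 (edgeR adjusted p = 0.996). In the interaction Stfa2l1 differed by 2.29 ± 0.62 and Slfn4, an interferon-responsive gene, by 1.70 ± 0.47 (adjusted p = 1). In the globin-rich libraries 37 of 46 stood above 0 (median 0.27), but 22 of 46 with limma-voom and 8 of 46 without spleen KO 03 (median -0.50). In the globin-poor ones 37 of 51 stood below 0 (median -0.12). The monocyte and macrophage markers had medians of -0.32 in blood and 0.11 in spleen, with 8 of 10 below 0 and 7 of 10 above 0. Their part in the genotype differences was not tested.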

How the data were processed

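Gene-level read counts of 12 libraries, 3 in each of 4 groups, were used as deposited, 1 table per library. The authors deposited raw counts, and the submitters' processing notes name HTSeq, HISAT2 2.0.4, Trimmomatic 0.36, SAMtools 0.1.19 and FastQC, and the builds GRCm38 and mm10. Strand setting and annotation release are not given in the sources used here. Symbols and positions came from GENCODE vM21 on GRCm38, which held 46091 of the 46603 identifiers. The counts of 10 globin genes were left out of library totals to compute CPM, and stage averages used log2(CPM + 1). Promoters came from RefSeq (GRCm38.p6), which had none for Mmp9 and Cebpe in the table used.

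Differences were tested with edgeR 4.0.16 in R 4.3.3 (filterByExpr, TMM scaling, robust quasi-likelihood F test, Benjamini-Hochberg adjustment over all genes tested, called under 0.05), with library kind (globin over 25% of counts or not) as a term in the blood, spleen, interaction and label fits. Fold changes are ± SE. The members, stage lists, marker lists, tests and library kinds were chosen with earlier results of these data known. All 31 genes are named, with test values for those called and the 3 with the smallest p in each comparison. In the 55 further neutrophil genes, the 2 with the smallest p are named in the genotype comparisons of each label and their interaction. Alternatives were other scalings, no filter, DESeq2 1.42.0, limma-voom (limma 3.58.1), no kind term, a replicate block, leaving out each library, and leaving out or using only the 6 libraries that go against their label. Figures were drawn with matplotlib 3.10.9.

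Some groups share replicate numbers, but the labels tie no number to a mouse. Deviations from group means of same-numbered libraries correlated at -0.778 to 0.661, positive where both libraries were of 1 kind and negative where they were not. With library kind removed as well, they ranged from -0.644 (spleen WT 01 with spleen KO 01) to 0.451 (blood KO 03 with spleen KO 03). The signs were mixed, so the numbers were not used as pairs.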

Additional observations from a re-analysis of the deposited data

Results flagged for a closer look

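In groups of 6 libraries, the stage sums were screened for a single library far from the rest, a screen that flags about 1 in 20 groups by chance. Among the globin-rich libraries, spleen KO 03 was far above the next in 4 of the 6 stages. Its secondary granule and myelocyte genes summed to 520.5 CPM, its gelatinase granule genes to 821 CPM, its mature-cell genes to 1756 CPM and its cytosolic and lysosomal genes to 5411 CPM. Among the globin-poor libraries, spleen WT 01 was far above the next for the gelatinase granule genes, at 171 CPM.

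Lcn2 was lower in every KO than in any WT library labelled blood and higher in every KO than in any WT library labelled spleen. The difference between the KO effects, tested as an interaction by edgeR's quasi-likelihood test, was 2.70 on the log2 scale (adjusted p = 1), and did not pass.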

How the results depend on the processing

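Of the alternatives tried, those that changed a count of calls by over 1.5 times, a median beyond the spread between libraries, or a sign are given here. In blood, edgeR called 7 genes with no filter, 4 without the 6 libraries that go against their label, and 0 to 4 when single libraries were left out. In spleen it called 4 genes and 1 member with no filter, DESeq2 called 3 genes and 1 member, and leaving out single libraries gave 0 to 597 genes, 0 to 11 members and medians of 0.14 to 1.25. The spleen median was 0.16 without the 6 libraries. The interaction called 9 genes and 4 members with no filter and 4 genes with DESeq2, and its median was 0.93 without the 6 libraries and 0.82 to 1.80 without single libraries. For the tissue label, 449 genes and 2 members were called with no filter, 405 and 1 with DESeq2, 649 genes with limma-voom, 0 genes without the kind term and 3 to 13 without single libraries (medians 0.18 to 0.65). Leaving out the 6 libraries gave 6606 genes and 23 members (median -0.97), with Lyz2 at -0.76, Padi4 at -2.23 and Anxa1 at -1.04. Using only those 6 gave 6281 genes and 26 members (median 2.13). In globin-rich libraries 121 genes were called with no filter and 31 with DESeq2, and leaving out single libraries gave 0 to 483 genes, 0 to 1 member and medians of -0.73 to 0.59, with Mmp9 at -0.0921 (without spleen KO 03) to 0.70. There limma-voom put the median at -0.00215. In globin-poor libraries DESeq2 called 5 genes. With all counts as the total, the highest library's summed CPM was 3.84 times the lowest, against 6.57 with globin left out. The causes were not tested. Scaling by library size alone put the median of all genes at -0.17 in blood, 0.27 in spleen, 0.38 for the interaction and 0.33 in globin-rich libraries.

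A replicate block in place of the kind term gave medians of -0.0135 in blood and -0.57 in spleen, with Chil3 at 0.16 and Retnlg at 0.0341 in blood and Chil3 at -0.23 and S100a8 at -0.56 in spleen. With the kind term, the block gave 3 genes and 1 member for the interaction and 678 genes and 3 members for the tissue label. No paired analysis was possible in the globin-rich libraries because WT and KO share 1 number there. The globin-rich depth limits the primary granule genes: Elane, Mpo, Prtn3 and Ctsg lay near the limit that a count of 0 allows, so their order among those libraries was not resolved.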

Other observations

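The summed markers of the other granulocytes overlapped between the library kinds, while some single markers did not. The 6 eosinophil markers summed to 14.7 to 29.9 CPM when globin-rich and 23.7 to 46.1 CPM when globin-poor. Among them Prg2, a major granule protein, stood at 0 to 0.218 CPM against 9.60 to 18.8 CPM and the eotaxin receptor Ccr3 at 1.71 to 7.55 CPM against 8.76 to 20.5 CPM, whereas Siglecf, a surface lectin, went the other way, at 1.69 to 7.68 CPM against 0.0426 to 0.282 CPM. The 6 basophil and mast cell markers summed to 7.51 to 25.9 CPM and 17.1 to 25.1 CPM.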
